A study of Mus musculus with 31 samples.

Results

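The EGF receptor family and its ligands were followed as 10 genes, taken as all genes whose name on the array was Egfr, Erbb2, Erbb3, Areg, Ereg, Hbegf, Tgfa, Btc, Egf or Nrg1. These names covered 24 probes, of which 22 were bright enough to be kept. All 10 genes could be tested, among 19797 genes in all. RNA came from the distal colon of young BALB/c mice in a chemical model of colorectal cancer (CRC), in which all mice received azoxymethane (AOM), a DNA-damaging carcinogen, and dextran sodium sulphate (DSS), an irritant of the colon wall given in the drinking water during the first days. The CRC + E171 mice also received food-grade titanium dioxide (E171) by gavage at 5 mg/kg bw/day, and the CRC mice received the water used as vehicle. Colon was taken after 2, 7, 14 or 21 days, giving 8 groups and 31 one-colour arrays with 1 mouse each. A group held 2 males and 2 females, except for CRC at 21 days, which held 3 arrays. No group without AOM and DSS is compared here, so each comparison describes E171 or time within the CRC model.

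Members of this family are receptor tyrosine kinases that pair up after a ligand has bound. Egfr binds EGF, TGF-alpha, amphiregulin, epiregulin, betacellulin and HB-EGF, which are made as membrane proteins and shed by proteases, whereas Erbb3 binds neuregulins, has little kinase activity of its own and signals through Erbb2, which has no known ligand. In the intestine these receptors drive growth and repair of the epithelium, and their signal runs mainly through the RAS-ERK and PI3K-AKT cascades.

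The 60-base probes show which part of a transcript each value stands for. The following 4 were chosen because they read coding sequence of a receptor or of the neuregulin whose levels are compared below. They are given 5′ to 3′ with coordinates on mm9 as the array design states them. Capitals mark 2 cysteine codons in the reading frame of the Egfr probe and of the Nrg1 probe A_52_P369769, and the stop codon in the other two. The cysteines of the Egfr probe lie in the cysteine-rich extracellular part of the receptor and those of that Nrg1 probe in the EGF-like domain that contacts Erbb3.
Egfr, probe A_52_P56471, chr11:16783545-16783604, plus strand: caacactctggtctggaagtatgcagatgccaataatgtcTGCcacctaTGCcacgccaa
Erbb3, probe A_55_P2119897, chr10:128006424-128006483, minus strand: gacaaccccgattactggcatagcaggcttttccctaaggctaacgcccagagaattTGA
Nrg1, probe A_52_P369769, chr8:32959791-32959850, minus strand: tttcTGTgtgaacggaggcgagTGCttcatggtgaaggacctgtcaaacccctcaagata
Nrg1, probe A_55_P1985433, chr8:32928500-32928559, minus strand: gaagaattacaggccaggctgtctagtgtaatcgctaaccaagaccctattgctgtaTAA

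The other receptor, Erbb2, was read by a pair of probes at chr11:98298103-98298162 and chr11:98298394-98298453 on the plus strand. Egfr had 4 kept probes, Erbb3, Hbegf, Tgfa and Egf had 2 each, Nrg1 had 5, and Areg, Ereg and Btc had 1 each. The probes of Ereg, Areg and Btc all lie on chromosome 5 between positions 91522553 and 91788090 of mm9, a stretch of 266 kb. A second Btc probe and another Egf probe were well above background on 0 of 31 arrays and were dropped. The second Hbegf probe was well above background on 12 of 31 arrays, so the mean for Hbegf rests partly on a dim probe.

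A level is the processed signal of a spot divided by the 75th percentile of the signals on its array and put on the log2 scale, so 0 means a signal equal to that percentile. Probes of a gene were averaged. Since probes bind with unequal strength, levels are compared between arrays and not between genes. Between 67.4 and 78.9% of an array's spots exceeded background clearly by the scanner software's own call, and arrays of the same group correlated with r between 0.825 and 0.990. Arrays lay on 8 slides scanned on 3 days. No slide held both exposures of the same day, and CRC and CRC + E171 took different columns of the slides, so slide position and E171 cannot be told apart. On the array labelled male 2 of CRC at 14 days Xist, a transcript of the inactive X chromosome, was at -1.60, against -8.51 to -6.53 on the other 14 male arrays and -2.34 to -0.70 on the 16 female arrays. The Y-linked Ddx3y was at -8.93 there, against -5.31 to -4.78 on the other male arrays and -9.33 to -7.81 on the female ones. Both genes go against the label, so it is called the array labelled male 2. With it left out, the 14-day effect of E171 had 0 of 10 members past the threshold defined below, as it had with it, while Hbegf between 2 and 14 days in CRC moved from 0.56 to 0.90 and past the threshold (limma adjusted p = 1.0). The share of all genes past the threshold without this array is not given.

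A set of 3 arrays stood apart from the other 28 in colonocyte and goblet cell markers: both male arrays of CRC at 7 days and the male 2 array of CRC + E171 at 14 days. The summed linear signal of 7 colonocyte markers, relative to the percentile, was 6.50, 17.8 and 36.7 on these arrays and 133 to 413 on the others. For 7 goblet cell markers it was 4.20, 117 and 29.6 against 311 to 923. For 8 pan-epithelial markers it was 39.7, 175 and 340 against 329 to 636, so that the sum of the CRC + E171 array lay within the others. Its pan-epithelial score, the median of the markers' centred log2 levels, was -0.48 and lay below the others (-0.31 to 0.67). For 7 fibroblast markers it was 192 and 147 on the first and last, above all others, and 103 on the second, within the range of the others. The fibroblast score was 1.09, 1.23 and 1.34 on the 3 arrays, above the others (-1.07 to 0.41). For 6 neutrophil markers it was 342, 165 and 132 against 35.9 to 74.1. Of these markers Csf3r had a mean log2 level of 5.67 and the others -5.90 to -0.73, so the neutrophil sum leans on Csf3r. The neutrophil score was 4.65, 6.16 and 4.30 against -1.94 to 1.78. The first of the 3 arrays also carried skeletal muscle markers at a sum of 348 (0.835 to 7.67 on the other 28) and squamous epithelium markers at 573, the second pancreatic acinar markers at 395 and the last squamous markers at 329. Squamous and acinar markers reached 328 and 1440 on arrays among the other 28 as well. Results that rest on these 3 arrays are given with and without them, a choice made after the data had been seen. In a piece of bulk tissue fewer cells of a type and less RNA per cell cannot be told apart.

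**Figure D1:**
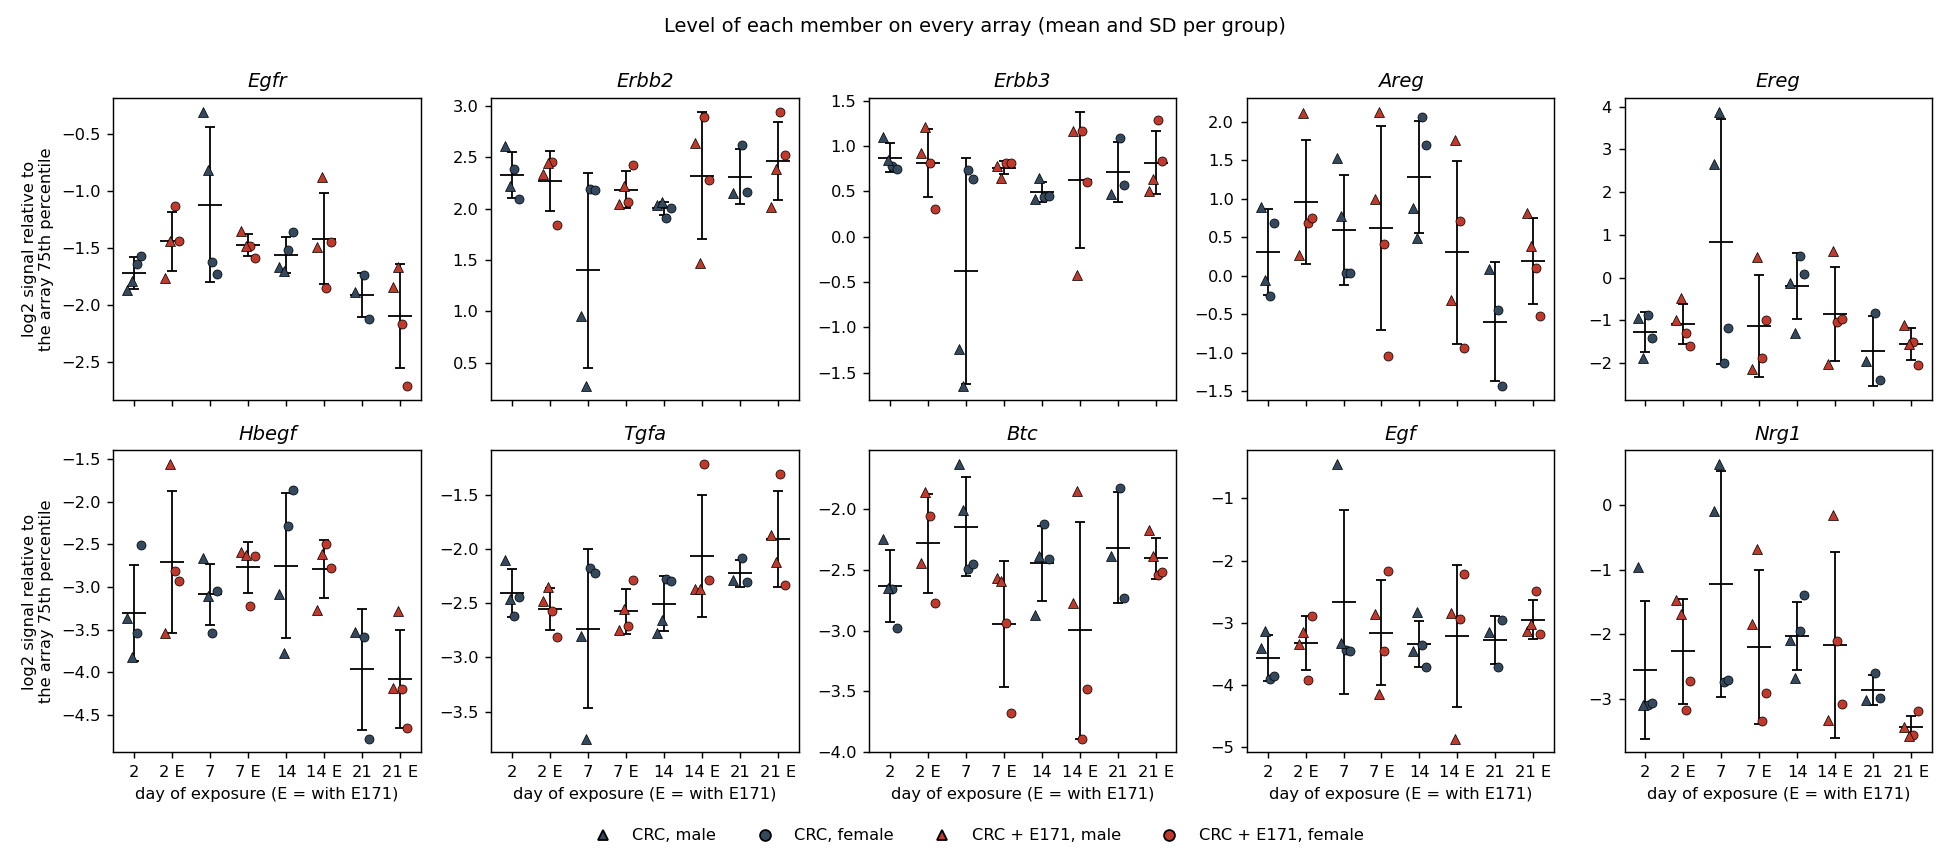
Level of each of the 10 genes on every array (log2 signal relative to the 75th percentile of the array), by day and exposure. Points are mice (triangles male, circles female) and bars give the group mean and SD. The 2 male arrays of CRC at 7 days lie below all others for Erbb2 and Erbb3 and above all others for Ereg and Nrg1.

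Among the receptors, Erbb2 and Erbb3 had their lowest group mean in CRC at 7 days and Egfr its highest. The mean level of Erbb3 was -0.38 ± 1.24 (SD, n = 4) in that group and between 0.49 and 0.87 in the other 7 groups. Erbb2 averaged 1.40 ± 0.95 (n = 4) there and 2.00 to 2.46 elsewhere. For Egfr the means ran from -2.09 ± 0.46 (n = 4) in CRC + E171 at 21 days to -1.12 ± 0.68 (n = 4) in CRC at 7 days. Neighbours in these orders did not differ beyond their spread: each gap was below or about equal to the larger SD of the pair, and the widest, from CRC at 7 days to the next Erbb3 mean, lay inside the SD of the CRC group at 7 days.

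The ligands differed in how much they varied. Ereg (epiregulin) covered 6.29 log2 units from the lowest to the highest array, a 78.1-fold range, and its SD over the 31 arrays exceeded that of 95.5% of all genes tested. Nrg1 (neuregulin 1) covered 4.21 units and stood at 91.5% by the same measure, Areg (amphiregulin) 3.56 units and 85.7%. Tgfa (TGF-alpha) and Btc (betacellulin), at 48.0 and 56.3%, varied about as much as the typical gene. Hbegf (HB-EGF) had its lowest group means at 21 days, -3.97 ± 0.71 (n = 3) in CRC and -4.08 ± 0.57 (n = 4) in CRC + E171, and its other 6 means lay between -3.31 and -2.71. Egf averaged from -3.57 ± 0.37 (n = 4) in CRC at 2 days to -2.66 ± 1.48 (n = 4) in CRC at 7 days, and its highest level, -0.45, came from 1 array of that last group.

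The effect of E171 was asked at each day against the CRC arrays of that day. A gene is counted as past the threshold when its linear fold change was at least 1.5 in either direction with an unadjusted limma p under 0.05. After 7 days 4 of 10 members were past it, 2 higher and 2 lower with E171, where 12.4% of all genes were. After 2, 14 and 21 days 0 of 10 were, against 1.72, 6.34 and 2.67% of all genes. None of these passed an adjusted p (Benjamini-Hochberg) of 0.05 in limma, and neither did any other gene, while the unadjusted p was under 0.05 for 541, 3327, 1580 and 1149 genes at the 4 days in turn. Over the members the median log2 fold change at 7 days was -0.17 and the median size 0.64, beside -0.01 and 0.29 over all genes. At the other days the median size over the members was 0.26, 0.23 and 0.18, beside 0.17, 0.22 and 0.24 over all genes.

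**Figure D2:**
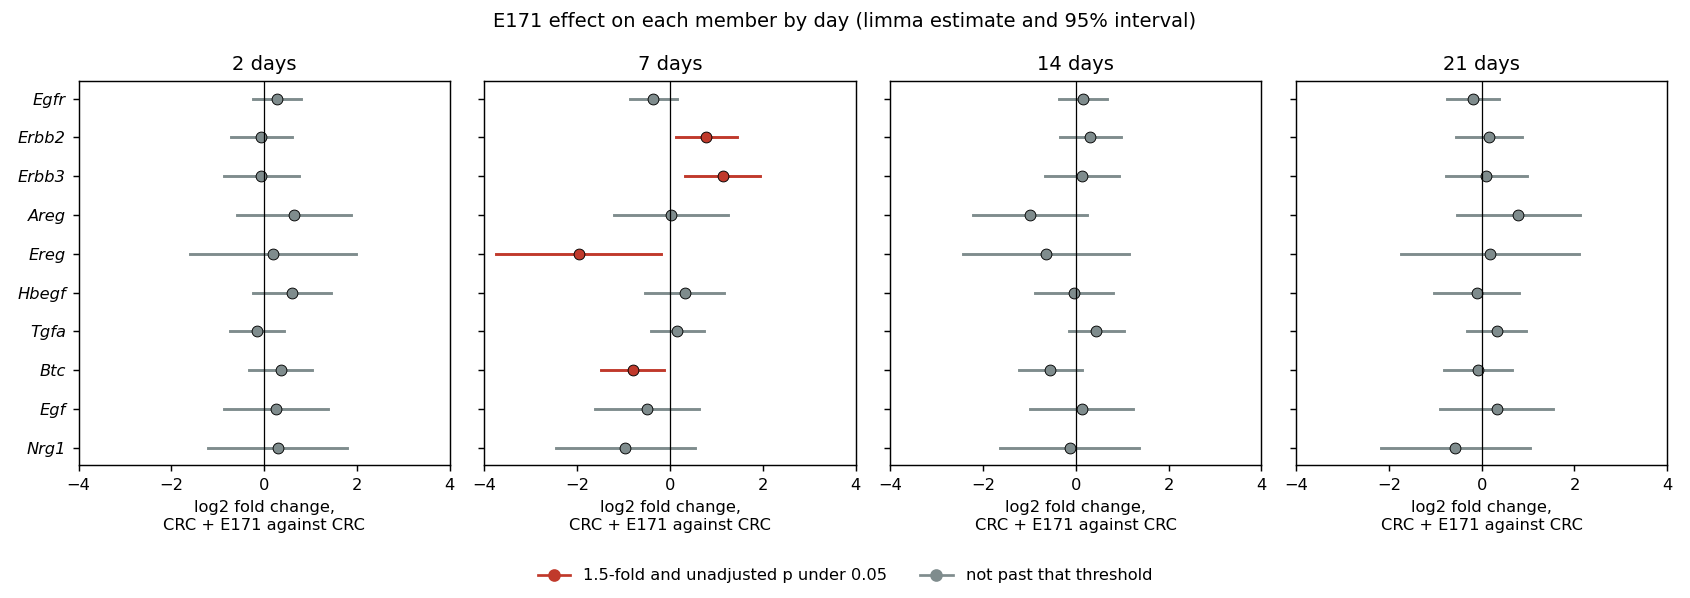
Log2 fold change of each member, CRC + E171 against CRC, at 2, 7, 14 and 21 days, with the limma estimate as a point and its 95% interval as a line (n = 4 per group, 3 for CRC at 21 days). Erbb3, Erbb2, Btc and Ereg at 7 days are past 1.5-fold with an unadjusted p under 0.05, and no member is on the other days.

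Erbb3, the neuregulin receptor, had the smallest p among the members at 7 days. In the CRC + E171 mice its level was 0.78 and 0.65 in the males and 0.81 and 0.81 in the females. In the CRC mice it was -1.24 and -1.65 in the males and 0.74 and 0.64 in the females. Both CRC females lay at or just below the CRC + E171 arrays and the CRC males far below, so the groups overlapped. The fitted difference was 1.14 (SE 0.39), a 2.20-fold higher level with E171 (limma p = 0.00761, adjusted p = 0.201), and the exact permutation test gave p = 0.0571 (two-sided). The 2 Erbb3 probes gave log2 fold changes of 1.11 and 1.16.

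Erbb2, the partner receptor, showed the same split of arrays. Its level at 7 days was 2.04 and 2.22 in the males and 2.06 and 2.42 in the females with E171. In the CRC mice it was 0.96 and 0.27 in the males and 2.19 and 2.18 in the females. Again the CRC males were low and the CRC females lay inside the range of the E171 arrays. The difference was 0.78 (SE 0.32), or 1.72-fold (limma p = 0.0222, adjusted p = 0.237), with an exact permutation p of 0.229. Its probes gave 0.80 and 0.77.

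Ereg, an inflammation-associated ligand of Egfr and Erbb4, was the member with the largest difference. It stood at 2.67 and 3.88 in the CRC males and at -2.0 and -1.19 in the CRC females of 7 days. With E171 it was -2.15 and 0.49 in the males and -1.88 and -0.99 in the females. The CRC males were the 2 highest of all 31 arrays, while the CRC females lay among the E171 mice. The fitted difference was -1.97 (SE 0.87), a 3.92-fold lower level with E171 (limma p = 0.0316, adjusted p = 0.260), and the exact permutation p was 0.314.

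Btc, which binds Egfr and Erbb4, was the member whose groups did not overlap at 7 days. Its CRC levels were -1.63 and -2.01 in the males and -2.49 and -2.45 in the females. With E171 the levels were -2.57 and -2.59 in the males and -2.94 and -3.68 in the females. Every E171 array lay below every CRC array, although the gap between the closest pair was small. The difference was -0.80 (SE 0.33), or 1.74-fold lower (limma p = 0.0234, adjusted p = 0.239), with an exact permutation p of 0.0286, the smallest that 4 arrays against 4 allow. Groups without overlap occurred for 4.85% of all genes at this day and for 1 of 10 members.

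The other 6 members did not pass the threshold at 7 days. Egfr differed by -0.36 (95% interval -0.87 to 0.16), and its probes gave -0.71, -0.34, -0.36 and -0.01, the first of these from the brightest probe, A_52_P106259. With the brightest probe in place of the mean, Egfr was past the threshold (limma adjusted p = 0.213). Nrg1 differed by -0.96 (-2.46 to 0.53), with 4 of its 5 probes between -1.47 and -1.16. The remaining Nrg1 probe, A_55_P2811400, which lies farthest upstream of all, gave 0.45. Areg differed by 0.02 (-1.20 to 1.25), Hbegf by 0.32 (-0.53 to 1.16), Tgfa by 0.16 (-0.42 to 0.74) and Egf by -0.49 (-1.61 to 0.63). These intervals are wide, and differences of 1.5-fold lie inside all 6.

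The receptor and Ereg differences at 7 days rested on the 2 male CRC arrays that stood apart. Without both, the limma estimate was 0.07 for Erbb3 (95% interval -0.58 to 0.72), 0.00 for Erbb2 (-0.58 to 0.58) and 0.46 for Ereg (-0.89 to 1.82). The Btc difference was -0.47 (-1.30 to 0.36). Without both, 0 of 10 members were past the threshold, against 2.30% of all genes. The CRC group then has 2 arrays, both female, and is assumed to vary like the other groups. The CRC + E171 group keeps both sexes, so exposure and sex are mixed in these estimates. Among females alone the difference was 0.12 for Erbb3, 0.05 for Erbb2, 0.16 for Ereg and -0.84 for Btc. Single arrays also decided the calls at 7 days: 1 member passed without CRC male 1 (Erbb3), 1 without CRC male 2 (Btc) and 2 without CRC + E171 female 2 (Erbb3 and Ereg). The share of all genes with each array left out is not given, so these counts describe the members only. Ereg was also lost without CRC + E171 male 1 (-1.63) or female 1 (-1.72). Erbb3 was 0.71 without CRC male 2, Ereg -0.96 without the same array, Erbb2 0.41 without it, and Btc -0.55 without CRC + E171 female 2. Within the scan day that held 2 arrays of each group at 7 days, the difference was 1.04 for Erbb3, 0.47 for Erbb2, -2.35 for Ereg and -0.69 for Btc, values without a test.

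**Figure D3:**
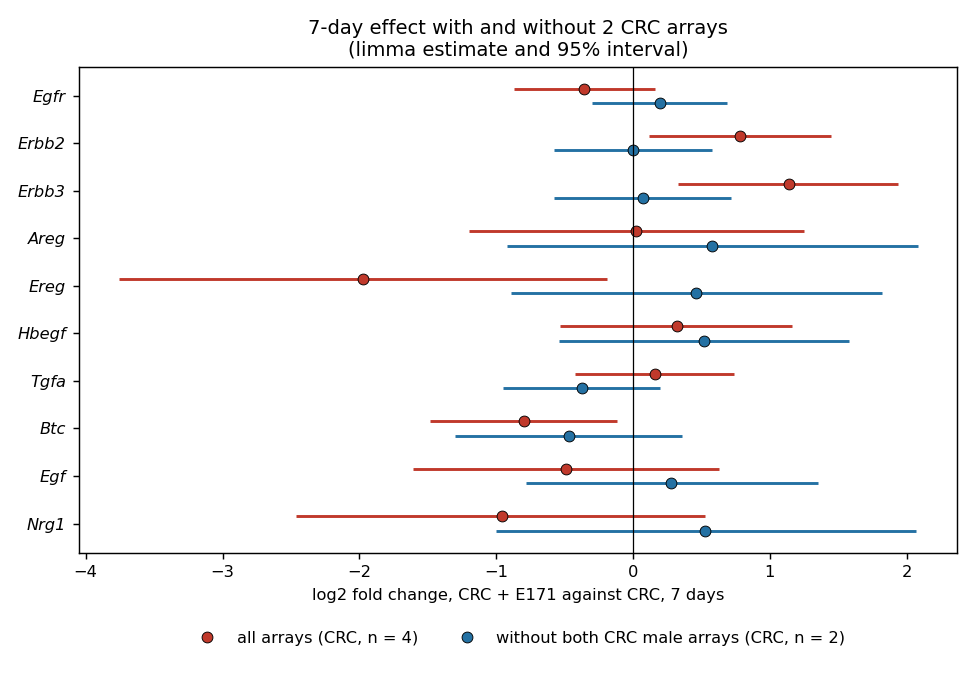
Log2 fold change of each member at 7 days, CRC + E171 against CRC, with all arrays and without both male CRC arrays, as the limma estimate and its 95% interval. Erbb3 moves from 1.14 to 0.07, Erbb2 from 0.78 to 0.00 and Ereg from -1.97 to 0.46, whereas Btc moves from -0.80 to -0.47. Without those arrays the CRC group is female only and the CRC + E171 group keeps both sexes. Among females alone Btc differs by -0.84.

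Cell type markers moved with the same comparison. Past the threshold and higher with E171 at 7 days were 5 of 7 colonocyte, 6 of 7 goblet cell and 8 of 8 pan-epithelial markers (Epcam, Cdh1 and keratins among them), where 12.4% of all genes were past it in either direction. Lower were 5 of 7 skeletal muscle, 4 of 7 macrophage, 2 of 6 neutrophil, 2 of 5 pancreatic acinar and 1 of 7 fibroblast markers. The summed colonocyte signal ranged from 6.50 to 214 in the CRC group of 7 days and from 169 to 235 with E171. The corresponding ranges were 4.20 to 493 and 406 to 746 for goblet cells, 39.7 to 462 and 366 to 493 for the pan-epithelial list, and 49.7 to 342 and 46.1 to 74.1 for neutrophils. All 7 colonocyte, 7 goblet and 8 pan-epithelial markers were detected, while Ngp of the neutrophil list was not kept. Their part in the Erbb2, Erbb3, Ereg and Btc differences was not tested.

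Split by sex, the 7-day differences in the receptors and Ereg were large in the males and near 0 in the females. In males E171 against CRC was 2.15 for Erbb3 (limma adjusted p = 9.65e-04), 1.52 for Erbb2 (adjusted p = 0.00652), -0.85 for Egfr (adjusted p = 0.0260) and -4.11 for Ereg (adjusted p = 0.00318). In females the same differences were 0.12, 0.05, 0.14 and 0.16, all with an adjusted p of 1.0. Btc did not split in this way, with -0.76 in males and -0.84 in females. How many of all genes passed such an adjusted p in males was not counted, so these values do not single out the members. The CRC males here are the arrays that stood apart.

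The test of the split itself, males minus females, gave 2.04 (SE 0.51) for Erbb3 with a limma adjusted p of 0.0368. It gave -4.27 for Ereg (adjusted p = 0.0518), 1.46 for Erbb2 (adjusted p = 0.104) and -0.99 for Egfr (adjusted p = 0.123). So 1 of 10 members passed an adjusted p of 0.05, where 3.71% of all genes did. The count was 0 when any 1 of 9 arrays was left out, among them both CRC females and 3 of the 4 CRC + E171 arrays of 7 days. It was 2 without CRC male 2 of 7 days and 3 without either CRC + E171 male of 14 days. In this test the CRC males are the same 2 arrays that stood apart, so sex and those arrays cannot be told apart.

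At 14 days the single array of CRC + E171 that stood apart, which carried squamous markers and few colonocyte and goblet cell markers, moved the Areg and Btc differences. The part of those cells was not tested. Areg was at 0.88 and 0.49 on the CRC arrays labelled male (the second being the one that goes against its label) and 2.06 and 1.70 in the CRC females, and at -0.32 and 1.77 in the E171 males and 0.71 and -0.94 in the E171 females. The second E171 male, which is the array that stood apart, was the highest of its group and the groups overlapped. With all arrays the Areg difference was -0.98 (SE 0.60, limma adjusted p = 0.711, exact permutation p = 0.229). Without that array it was -1.47 (SE 0.60, limma adjusted p = 0.276), 1 of the 2 members that then passed the threshold.

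Btc at 14 days was -2.87 and -2.39 on the CRC arrays labelled male and -2.12 and -2.41 in the females. With E171 it was -2.77 and -1.85 in the males and -3.89 and -3.48 in the females. The E171 females were the lowest 2 arrays of that day and the second male the highest. The difference was -0.55 (SE 0.33, limma adjusted p = 0.704, exact permutation p = 0.286) with all arrays. Without that male it was -0.93 (SE 0.30, limma adjusted p = 0.180). Thus 2 of 10 members were past the threshold once it was left out, against 10.8% of all genes. The sexes differed by 1.74 in the Btc effect at this day (limma adjusted p = 0.327), and 0 of 10 members passed an adjusted p of 0.05 in that test, against 0.00505% of all genes. By its label the test counts the CRC array labelled male 2 as a male, and without that array 0 of 10 members passed as well.

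At 2 days the widest difference was 0.65 for Areg (SE 0.60), followed by 0.59 for Hbegf (SE 0.41), and the groups of all 10 members overlapped (3.91% of all genes did not). At 14 days the groups of all 10 overlapped too (5.90% did not). At 21 days Nrg1 was -3.01 in the CRC male and -2.60 and -2.98 in the CRC females, and -3.43 and -3.57 in the E171 males and -3.56 and -3.19 in the E171 females. It was lower on every E171 array, by -0.57 on average (SE 0.78, limma p = 0.474, adjusted p = 0.955, exact permutation p = 0.0571), and was the 1 member of 10 without overlap, against 8.02% of all genes. The wide SE of the model comes from the spread of Nrg1 in the other groups, since the SD at 21 days was 0.23 (n = 3) in CRC and 0.18 (n = 4) with E171.

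The E171 effect was averaged over the 4 days in a separate fit with slide as a fixed term. This mean was 0.33 for Erbb3 (SE 0.21), 0.30 for Erbb2 (SE 0.16), -0.59 for Ereg (SE 0.48) and between -0.36 and 0.20 for the remaining 7. Past the threshold were 0 of 10 members and 1.80% of all genes. In limma 0 genes had an adjusted p under 0.05 for this mean, with 1977 at an unadjusted p under 0.05. A difference of the effect between days had an unadjusted p under 0.05 for 0 of 10 members, the smallest being 0.0951 for Btc, beside 1290 of 19797 genes.

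Change with time was asked within the CRC mice, against their 2-day group. Each day of the CRC mice lay on slides of its own, so time and slide cannot be told apart. This comparison at 7 days shares the CRC arrays of 7 days with the E171 effect above, so the 2 are not independent. At 7 days 4 of 10 members were past the threshold (13.4% of all genes), 2 of them higher than at 2 days and 2 lower. At 14 and 21 days 0 of 10 were, against 2.55 and 3.59% of all genes. With limma, 0 genes had an adjusted p under 0.05 in any of the 3 comparisons, while 3404, 787 and 1079 had an unadjusted p under 0.05.

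In this comparison Erbb3 was lower by 1.25 log2 units at 7 days than at 2 days, a 2.37-fold difference (SE 0.39, limma adjusted p = 0.207). At 2 days its levels were 1.10 and 0.85 in males and 0.78 and 0.75 in females, all above the 7-day levels, the highest of which was 0.74 (exact permutation p = 0.0286). It was the 1 member of 10 without overlap, against 4.75% of all genes. The 7-day females lay just under the lowest 2-day array.

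Erbb2 was 1.90-fold lower at 7 days than at 2 days (-0.92, SE 0.32, limma adjusted p = 0.208, exact permutation p = 0.114). Its 2-day levels were 2.61 and 2.22 in males and 2.38 and 2.09 in females, which overlapped the 7-day females. Ereg was 4.34-fold higher (2.12, SE 0.87, limma adjusted p = 0.227, exact permutation p = 0.343). At 2 days Ereg lay at -0.94 and -1.89 in males and -0.87 and -1.41 in females, within the span of the 7-day group.

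Egfr was 1.52-fold higher at 7 days (0.60, SE 0.25, limma adjusted p = 0.235, exact permutation p = 0.143). Its levels at 2 days were -1.87 and -1.79 in males and -1.64 and -1.57 in females, and at 7 days -0.31 and -0.82 in males and -1.62 and -1.73 in females. The males of 7 days were the highest and the females lay among the 2-day mice. Nrg1, at 1.33 (SE 0.72, limma adjusted p = 0.344), did not pass with all arrays, but did with its brightest probe (1.89), with sex as an added term (1.33), and without CRC male 1 of 2 days (1.86) or either CRC female of 7 days (1.83 and 1.82). Leaving out single arrays, 2 members passed without CRC male 1 of 7 days or without CRC male 2 of 2 days (Erbb2 and Erbb3) and 1 without CRC male 2 of 7 days (Erbb3). No share of all genes is given for these fits, so the counts describe the members only. Egfr was also lost without CRC male 1 of 2 days (0.55). Without CRC male 2 of 7 days Egfr differed by 0.50, Erbb2 by -0.55 and Ereg by 1.10, and without CRC male 1 of 7 days Egfr by 0.33. Without both CRC males of 7 days the differences were -0.18 for Erbb3, -0.14 for Erbb2, 0.04 for Egfr and -0.32 for Ereg, and 0 of 10 members passed, against 1.93% of all genes. The 7-day group is then female only, while the 2-day group keeps both sexes.

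Epithelial markers moved in this comparison as well. Past the threshold, which 13.4% of all genes passed in either direction, and lower at 7 than at 2 days were 6 of 7 colonocyte, 5 of 7 goblet cell and 8 of 8 pan-epithelial markers. Past it and higher were 6 of 7 skeletal muscle, 5 of 7 fibroblast, 2 of 6 neutrophil and 2 of 7 macrophage markers, and 1 of 7 squamous epithelium markers, about the share of all genes. In the CRC group of 2 days the summed colonocyte signal was 175 to 218, the goblet signal 375 to 565, the pan-epithelial signal 374 to 538 and the neutrophil signal 44.2 to 51.4, to be set against the 7-day ranges above. The part of these cells in the members' differences was not tested.

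At 14 days Erbb2 and Erbb3 of the CRC mice lay slightly below their 2-day levels without overlap, while Egfr differed by 0.16 (SE 0.25) and overlapped. Erbb2 was at 2.03 and 2.06 on the arrays labelled male and 2.01 and 1.91 in females, and differed by -0.32 (SE 0.32, limma p = 0.332, adjusted p = 1.0, exact permutation p = 0.0286). Erbb3, at 0.42 and 0.65 on the arrays labelled male and 0.44 and 0.45 in females, differed by -0.38 (SE 0.39, limma p = 0.342, adjusted p = 1.0, exact permutation p = 0.0286). These 2 of 10 members without overlap stood beside 9.15% of all genes. Ereg was higher by 1.07 (SE 0.87) and Areg by 0.97 (SE 0.60) at 14 days, and both groups overlapped those of 2 days. At 21 days the groups of all 10 members overlapped those of 2 days, which 10.7% of all genes did not, with Areg at -0.90 (SE 0.64) and Hbegf at -0.66 (SE 0.44).

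Males and females were compared over all groups, with each group given its own mean. Nrg1 was 1.91-fold higher in males (0.93, SE 0.33, limma adjusted p = 0.379) and higher by mean in 5 of 8 groups, with group differences from -0.71 in CRC at 14 days to 3.0 in CRC at 7 days. Areg was 1.55-fold higher (0.63, SE 0.28, limma adjusted p = 0.530), in 7 of 8 groups, with CRC at 14 days the exception. That group holds the array labelled male 2, which goes against its label and was counted as male here. Without it the difference was 0.73 for Areg and 1.04 for Nrg1, both past the threshold. Thus 2 of 10 members were past the threshold, against 2.98% of all genes. Btc was higher by 0.42 (SE 0.15, limma adjusted p = 0.394), in 6 of 8 groups, and stayed below 1.5-fold. Leaving out any 1 of 14 arrays took Areg below the threshold, with differences from 0.50 to 0.73 over all 31 arrays left out in turn. Without both CRC males of 7 days, or without all 3 arrays that stood apart, 0 of 10 members were past the threshold, beside 496 and 581 of 19797 genes in turn.

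The other genes of the pathway were taken as 61 genes in 5 lists, all of which could be tested. After 7 days of E171, 3 were higher and 6 lower past the threshold, or 14.8%, close to the 12.4% of all genes. Of 5 other ligands and receptors 1 passed, Epgn (epigen, an Egfr ligand), at -2.43 (SE 0.62, limma adjusted p = 0.197). Of 7 genes of ligand shedding and trafficking 3 did: Adam9, a membrane protease, at -0.59, Rhbdf2 (iRhom2, which brings the main sheddase to the cell surface) at -0.73 and Rhbdl2, an intramembrane protease, at 1.36. Of 23 adaptors and kinases only Pik3ca, the catalytic subunit of PI3K, passed, at 1.94.

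Of 13 inhibitors 2 passed at 7 days, Lrig3 at 0.71 and Socs3, a feedback inhibitor of cytokine and growth factor receptors, at -1.58. Among 13 ERK-responsive genes Ier3 was at -1.45 and the AP-1 subunit Fosl1 at -2.49. The limma adjusted p of these 9 genes lay between 0.197 and 0.277. Without both CRC males of 7 days 0 of the 61 passed, against 2.30% of all genes. In the CRC mice between 2 and 7 days 8 of the 61 were higher and 4 lower (19.7%, against 13.4% of all genes), and 1 of 61 passed without those arrays, against 1.93% of all genes.

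At the other days 2 of 61 pathway genes passed in each E171 comparison, or 3.28%, beside 1.72, 6.34 and 2.67% of all genes at 2, 14 and 21 days, so it lay above the share of all genes at 2 and 21 days and below it at 14 days. With 2 genes a day these are descriptions. The genes were Nrg3 (1.28) and Myc (-0.75) at 2 days, Etv4 (-1.39) and Fos (-1.05) at 14 days, and Spry4 (-2.17) and Egr1 (-1.25) at 21 days. Without the E171 array that stood apart, 3 of 61 passed at 14 days, against 10.8% of all genes: Etv4 (-1.94) remained, Akt1 (-0.59) and Phlda1 (-0.88) were gained and Fos (-0.83) was lost. In the CRC mice Timp3, an inhibitor of the sheddases, and Etv4 were the 2 of 61 (3.28%, near the 2.55 and 3.59% of all genes) higher at both 14 days (0.62 and 1.17) and 21 days (0.59 and 1.30) than at 2 days, with a limma adjusted p of 1.0 at 14 days and 0.901 at 21 days.

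Across arrays the members fell into sets whose levels varied together. Because 3 arrays stood apart in colonocyte and goblet cell markers, correlations are given over the other 28. Each has a permutation test, with Benjamini-Hochberg adjustment over the 45 pairs. By Pearson's r 10 of these pairs had an adjusted p under 0.05, and all 10 were positive. Erbb2 and Erbb3 gave Pearson's r = 0.863 and Spearman's rho = 0.823, each with p = 1e-05, the smallest that the permutations can give (adjusted p = 2.25e-04 and 4.50e-04). Without the 2 arrays farthest from the Erbb2 median r was 0.818, within the 3 scan days 0.896, 0.696 and 0.893, and after subtraction of group means 0.866.

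Egfr was most like Hbegf, with r = 0.746 (permutation p = 1e-05, adjusted p = 2.25e-04) and rho = 0.730 (p = 3.00e-05, adjusted p = 6.75e-04). Without the 2 farthest arrays r was 0.757, and within scan days it was 0.563, 0.843 and 0.907. After subtraction of group means r was 0.506, so part of this relation lay between the groups.

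Areg, Ereg, Hbegf and Nrg1 formed a second set, in which all 6 pairs passed by Pearson's r. By Spearman's rho Areg with Ereg did not (permutation adjusted p = 0.0896), nor did Ereg with Hbegf or Hbegf with Nrg1 (each adjusted p = 0.0779). Areg and Nrg1 gave r = 0.630 (permutation p = 3.40e-04, adjusted p = 0.00276), rho = 0.532 (p = 0.00401, adjusted p = 0.0361) and 0.570 without the 2 farthest arrays. Within the scan days r was 0.532, 0.457 and 0.855. The neighbouring genes Areg and Ereg gave r = 0.633 (permutation p = 3.90e-04, adjusted p = 0.00276), rho = 0.447 (p = 0.0179, adjusted p = 0.0896) and 0.50 without the 2 farthest. Within scan days their r was -0.0321, 0.709 and 0.800, so the relation did not hold within the first. The relation of Ereg with Hbegf (r = 0.577, adjusted p = 0.00652, rho = 0.462) did not hold within it either (r = -0.212).

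The other 3 pairs of this set were Areg with Hbegf (r = 0.636, adjusted p = 0.00270, rho = 0.567, scan days 0.342, 0.575 and 0.735), Ereg with Nrg1 (r = 0.627, adjusted p = 0.00276, rho = 0.536, scan days 0.229, 0.692 and 0.913) and Hbegf with Nrg1 (r = 0.497, adjusted p = 0.0347, rho = 0.470, scan days 0.568, 0.184 and 0.616). After subtraction of group means the last of these was 0.257. The last 2 pairs that passed were those of Tgfa. Its r with Erbb2 was 0.670 (rho = 0.411) and 0.357 without the 2 farthest arrays, and its r with Erbb3 was 0.476 (rho = 0.196) and 0.271, so both rested on few arrays. Over all 31 arrays 26 of 45 pairs passed, 16 positive and 10 negative. Erbb3 and Ereg, for example, gave r = -0.809 over 31 arrays and -0.164 without the 3.

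**Figure D4:**
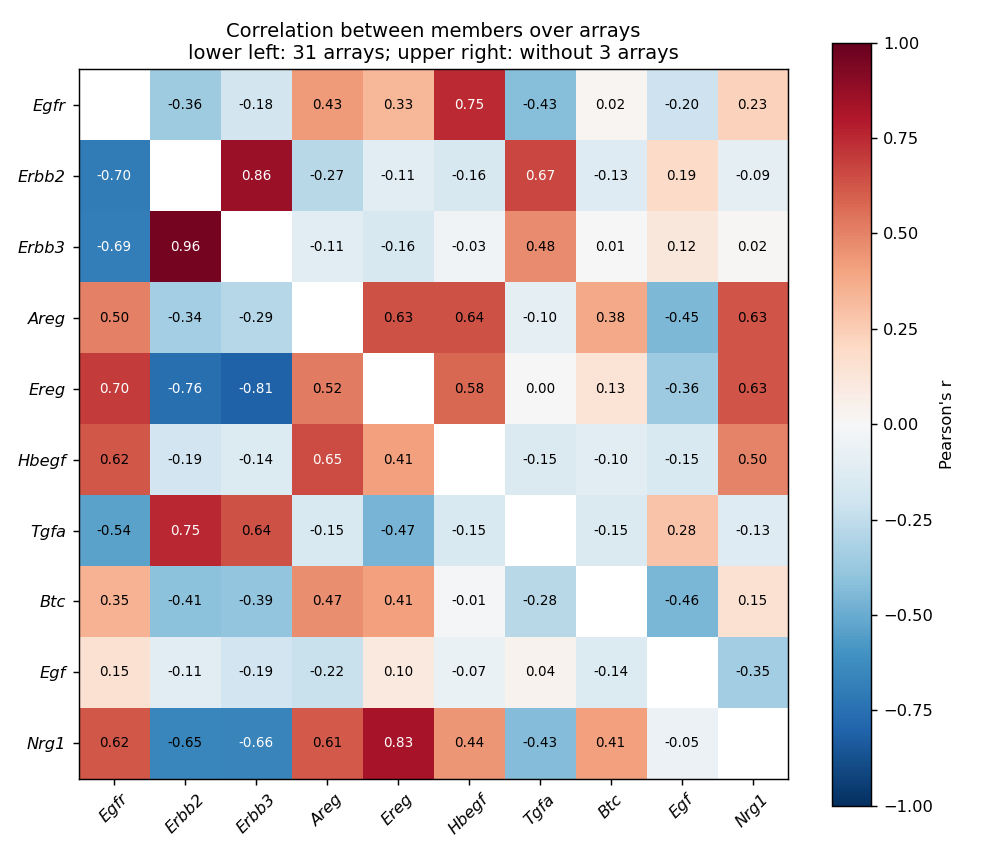
Pearson's r between the levels of each pair of members, over 31 arrays in the lower left and over the 28 arrays without the 3 that stood apart in the upper right. Erbb2 with Erbb3 is positive in both (0.959 and 0.863), while the negative values of Erbb3 with Ereg (-0.809) are near 0 (-0.164) without the 3 arrays.

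Members were also set beside 14 lists of cell type markers, with 140 relations in all. Over the 28 arrays 11 had an adjusted p under 0.05 by Pearson's r, 7 positive and 4 negative, compared with 41 over all 31. By Spearman's rho only Erbb3 with colonocytes, Ereg and Nrg1 with fibroblasts and Egf with macrophages did. Erbb3 with the colonocyte score, the median centred level of its markers, gave r = 0.582 (permutation p = 0.00103, adjusted p = 0.0311) and rho = 0.589 (p = 0.00117, adjusted p = 0.0469), against r = 0.910 over 31 arrays. Without the 2 farthest arrays r was 0.524, and within scan days it was 0.607, 0.825 and 0.0318, so it did not hold within the last of them. For Erbb2 and colonocytes r was 0.570 (adjusted p = 0.0311, rho = 0.536) and within scan days 0.640, 0.557 and 0.00626. Erbb2 and Erbb3 were negatively related to the B cell score by Pearson's r, at -0.533 (permutation adjusted p = 0.0461) and -0.574 (adjusted p = 0.0311). Their rho did not pass, at -0.449 (adjusted p = 0.139) and -0.486 (adjusted p = 0.107). Without the 2 farthest arrays r was -0.379 and -0.449, and over all 31 arrays it was -0.183 and -0.0904.

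Ereg was related to the neutrophil score, with r = 0.716 (permutation p = 5.00e-05, adjusted p = 0.00490), rho = 0.564 (p = 0.00226, adjusted p = 0.0596), 0.595 without the 2 farthest arrays and 0.294, 0.778 and 0.786 within the scan days. It was also related to the fibroblast score (r = 0.644, adjusted p = 0.00607, rho = 0.630, scan days 0.187, 0.702 and 0.838). Nrg1, a gene known from stromal cells of the gut, gave r = 0.566 with the fibroblast score (permutation p = 0.00158, adjusted p = 0.0311), rho = 0.589 (p = 0.00134, adjusted p = 0.0469) and 0.577 without the 2 farthest, with 0.404, 0.576 and 0.771 within scan days. Its r with the neutrophil score was 0.544 (adjusted p = 0.0443, rho = 0.504), and -0.0429 within the first scan day.

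Of the remaining relations that passed, Areg with fibroblasts had r = 0.530 (adjusted p = 0.0461, rho = 0.443, and -0.0438 within the first scan day). Egf with macrophages had r = -0.675 (adjusted p = 0.00490, rho = -0.687, scan days -0.643, -0.815 and -0.612) and Tgfa with macrophages r = -0.552 (adjusted p = 0.0311, rho = -0.435, scan days -0.726, -0.445 and -0.339).

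**Figure D5:**
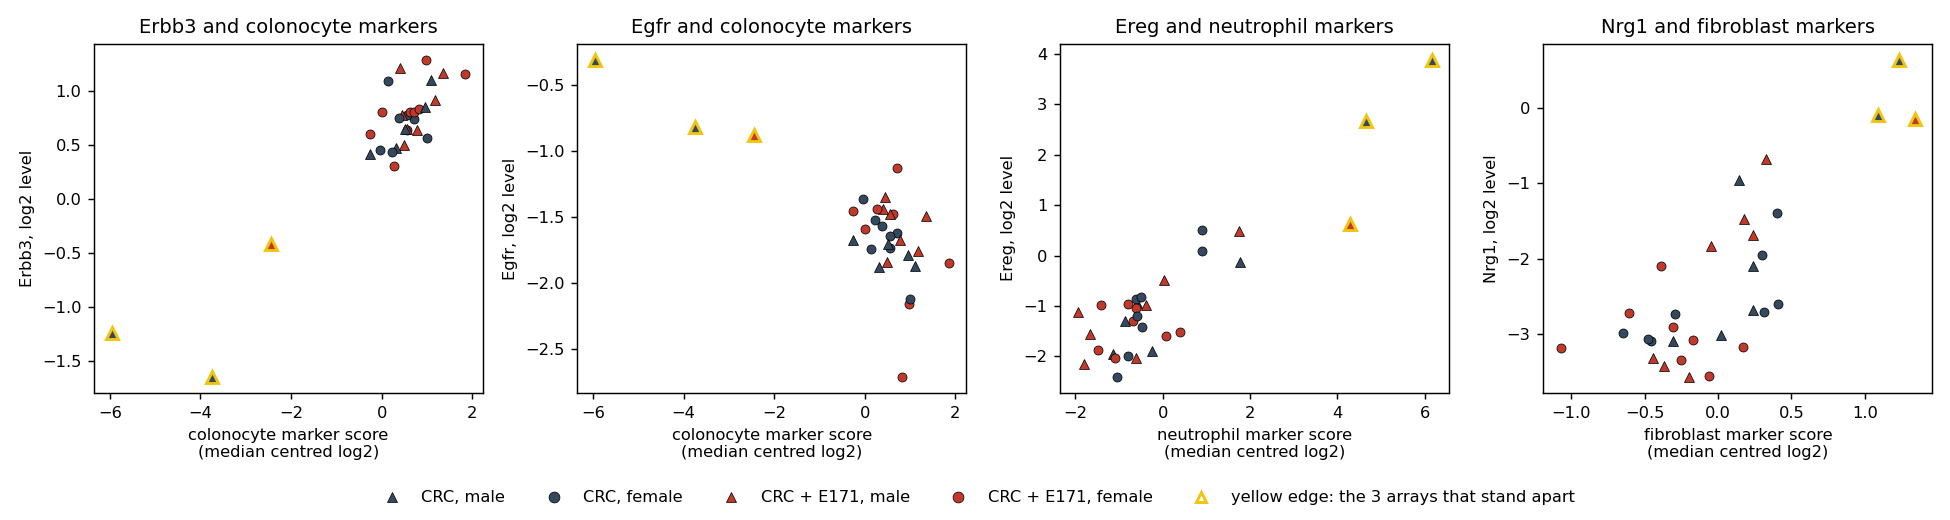
Levels of Erbb3 and Egfr against the colonocyte score, Ereg against the neutrophil score and Nrg1 against the fibroblast score, 1 point per array; the score is the median over markers of the log2 level centred on its mean over 31 arrays. The 3 arrays with a yellow edge have the lowest colonocyte scores (-5.96, -3.74 and -2.45) and the highest neutrophil scores (4.65, 6.16 and 4.30).

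The genes most like each member over the 31 arrays were also listed by Pearson's r among 19740 genes with a value on every array. These values share the 3 arrays that stood apart and are descriptions only. For Erbb2 the closest was Erbb3 (0.959), followed by Sh3yl1 (0.940) and Kif16b (0.935), and for Erbb3 the order was Erbb2, Sh3yl1 (0.952) and Akr1c14 (0.949). Egfr was closest to Lamp2 (0.901), Il6st (0.859) and Zfand5 (0.848), and Nrg1 to Hgf (0.890), Plvap (0.883) and Igfbp4 (0.876). Ereg was closest to Adamts9 (0.935), Il11 (0.927) and Kirrel (0.925), and Btc to Cstdc5 (0.882), Anxa1 (0.870) and Anxa8 (0.863). Tgfa had Nln (0.873), Cda (0.834) and 2900026A02Rik (0.808), and Egf had Cox8b (0.834), Lhpp (0.817) and Amhr2 (0.802). The lowest values were those of Areg with Fam102b (0.761), Tirap (0.737) and Bzw1 (0.719), and of Hbegf with Rnf24 (0.739), 3110053B16Rik (0.728) and Tet2 (0.719).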

How the data were processed

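The members and the gene lists were chosen with earlier results of these data known. The authors scanned 1 one-colour Agilent array per mouse and deposited Feature Extraction (version 10.7.3.1) files, whose processed signal is an intensity after background subtraction, not normalized between arrays. The authors also deposited log2 values of 42568 probes, normalized by a method not given in the sources used here, which served as an alternative (Spearman's correlation with the array's own signal 0.994 to 1.00).

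From the intensity, log2 minus the log2 75th percentile was computed with outlier spots left out. A probe was kept if in some group at least 60% of the arrays were well above background with a mean log2 signal of 4 or more (42787 of 56605 probes). Kept probes were named through RefSeq by accession (26956), symbol (7020) or synonym (368), 8443 stayed unnamed, and probes of a gene were averaged. For 56 genes some array lacked a value. One limma fit over the 8 groups gave the comparisons between groups and between days, with p-values adjusted over all genes (R 4.3.3, limma 3.58.1, statmod 1.5.0). The mean E171 effect over days came from a separate fit with slide added as a fixed term. Sexes were compared in a fit with sex added, and the split by sex in a fit over day, exposure and sex. Exact permutation tests used all regroupings, and correlations 100000 permutations (scipy 1.17.1). The number of arrays limits the precision. Named beyond the members are pathway genes past the threshold in the E171 comparison with most members called or at 2 or more days, and the 3 genes most like each member, and both 7-day comparisons tied at 4 members, of which that of E171 was used. Naming single pathway genes at 2, 14 and 21 days was decided after their values had been seen. The fits were tested on simulated independent normal values, with each gene's SD within groups capped at the median over genes. These held no arrays that stood apart, so they cannot speak to calls that rest on such arrays. Alternatives are given in the closing section.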

Additional observations from a re-analysis of the deposited data

Results flagged for a closer look

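In groups of 4 arrays, 1 array lay far from the other 3 in 5 of 70 combinations of member and group. Chance alone marks about 1 in 20 such groups. Erbb3 was 0.65 on the array labelled male 2 of CRC at 14 days, against 0.42 to 0.45 on the other 3, and that is the array with a female-like Xist level. Hbegf was -3.22 on female 1 of CRC + E171 at 7 days, against -2.64 to -2.59. Tgfa was -1.22 on female 1 of CRC + E171 at 14 days, against -2.37 to -2.29. Egf was -0.45 on male 1 of CRC at 7 days, one of the arrays that stood apart, against -3.45 to -3.33. Nrg1 was -0.95 on male 1 of CRC at 2 days, against -3.09 to -3.07.

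The effect of E171 on Erbb3 at 7 days differed between males and females by 2.04 (limma adjusted p = 0.0368), and the male part of it rests on the 2 CRC arrays with low epithelial markers.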

How the results depend on the processing

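The counts of members past the threshold at 7 days depended most on the setting. Where no number of all genes stands beside a count in this section, the count describes the members only. Whether all genes moved alike is then not shown. With array weights, which give arrays unlike their group less weight, the E171 effect at 7 days and the CRC change from 2 to 7 days had 0 members each, and leaving out both CRC males of 7 days gave 0 each too. With a log2 fold change of at least 1.5 both counts were 1, and a fit of only the arrays compared gave 1 and 0. Scan day as a fixed block left 2 for the E171 effect at 7 days. Without both CRC males, of the members past the threshold Ereg (0.46) turned direction for E171 at 7 days and Erbb2 came to 0.00, and Ereg (-0.32) turned for CRC from 2 to 7 days. Of the others Egfr (0.20), Egf (0.28), Nrg1 (0.53) and Tgfa (-0.37) turned for E171, and Areg (-0.27), Tgfa (0.20) and Nrg1 (-0.17) for CRC. Those fits set CRC females of 7 days against groups of both sexes. Among females alone the E171 difference was 0.14 for Egfr, 0.63 for Egf, -0.40 for Nrg1 and -0.30 for Tgfa, so Nrg1 did not turn there. With the brightest probe Egfr (-0.71) was gained for E171 at 7 days and Nrg1 (1.89) for CRC at 7 days, the latter also with sex as an added term.

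Elsewhere array weights gave 3 for CRC at 14 days (Areg, Ereg and Nrg1, with 1586 of 19797 genes), 2 for E171 at 14 days (Areg and Btc, with 2631 genes) and 0 for males against females (471 genes), which was also 0 without both CRC males and without all 3 arrays. A fit of only the arrays compared gave 2 for CRC at 14 days (Areg and Ereg, with 1156 genes), normexp background correction 1 for E171 at 2 days (Hbegf), and the mean over 7 and 21 days 1 (Erbb3). The split by sex at 7 days counted 0 with the brightest probe or the authors' values and 2 with a stricter filter. The median of all genes for E171 at 21 days was 0.02 in the reported fit and -0.10 with the authors' values. The cause of these shifts was not tested, other than by the arrays left out.

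Leaving out 1 array at a time, the E171 count ranged from 1 to 4 at 7 days and 0 to 2 at 14 days, and the CRC count from 1 to 5 at 7 days and 0 to 1 at 14 days. The sex split ranged from 0 to 3 at 7 days and 0 to 2 at 14 days, males against females from 1 to 2 and the mean effect from 0 to 1. For E171 at 7 days, Erbb3 ranged from 0.71 to 1.51, Erbb2 from 0.41 to 1.05, Ereg from -2.92 to -0.96 and Btc from -0.92 to -0.55. For CRC from 2 to 7 days the ranges were -1.62 to -0.82 for Erbb3, -1.19 to -0.55 for Erbb2, 1.10 to 3.06 for Ereg and 0.33 to 0.80 for Egfr, and by sex 0.50 to 0.73 for Areg and 0.79 to 1.08 for Nrg1.

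In a paired fit that blocks on the numbered mouse of each sex (replicate block), the counts were 4 for both 7-day comparisons and 0 for the other 5 and the mean effect. Same-numbered arrays share only a number: of 15 pairs 8 deviated together with a correlation over 0.1 (range -0.181 to 0.479), and 8 matched best with their own number.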
